A study of Mus musculus with 12 samples.

Results

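The growth hormone and insulin-like growth factor (IGF) axis of mouse liver was followed through 9 genes: the receptor Ghr, the feedback inhibitors Socs2 and Cish, the hormone Igf1, its carrier Igfals and the binding proteins Igfbp1, Igfbp2, Igfbp3 and Igfbp4. All probe sets annotated to these symbols and no other were taken, 19 of 22626 on the 430A arrays and 25 of 45037 on the 430 2.0 arrays. The 9 stand among 12393 genes of the 430A arrays and 18193 of the 430 2.0 arrays. They were chosen by their signals in these same livers, off NTBC against normal, so their values in that comparison are descriptions from which no test is read.

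Fah is the last enzyme of tyrosine breakdown, and mice without it live on NTBC, a drug that blocks the pathway further upstream and so keeps toxic intermediates from forming. All mice were 10 weeks old, and RNA of each liver was read as MAS5 signal on Affymetrix arrays. On the 430A arrays, 2 livers came from mice lacking Fah and p21 (Fah p21 off livers) and 3 from mice lacking Fah alone (Fah off livers), all given water without NTBC for 14 days. The 4 livers titled normal pool 4 conditions with 1 mouse each: wildtype on water (normal 1), wildtype on NTBC (normal 2), Fah knockout on NTBC (normal 3) and Fah p21 knockout on NTBC (normal 4). The 430 2.0 arrays hold 2 further Fah p21 off livers, replicates 3 and 4, and a normal liver numbered 4, also a Fah p21 knockout on NTBC. The titles call these biological replicates, and the labels used here name neither sex nor strain nor the knockout alleles.

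Growth hormone from the pituitary binds Ghr on hepatocytes, and the kinase Jak2 then activates Stat5b, which enters the nucleus and switches on Igf1, Igfals, Socs2 and Cish. Socs2 and Cish proteins damp the same receptor. Most IGF-I in blood travels in a complex of IGF-I, Igfbp3 and the acid-labile subunit encoded by Igfals, whereas Igfbp1 is a short-lived binding protein that liver makes in fasting and amino acid shortage and that insulin suppresses.

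RefSeq promoter windows (GRCm38.p6) were found for 8 of the 9 genes, 12 windows in all, each running from 250 bases before to 30 bases after a transcription start. The STAT5 core motif TTCNNNGAA, which reads the same on both strands, was found in 3 of the 12 windows and in 7.83% of 32851 windows of all genes. The windows shown are those with a match to the STAT5, FOXO or insulin response motif. A match is a string of letters, and binding at it was not tested. The window length and the insulin response motif were chosen after the sequences had been seen. Capitals mark the matches. In Cish (chr9:107296409-107296688, plus strand) 2 STAT5 motifs, TTCCTGGAA and TTCTTGGAA, begin at bases 1 and 12 of the transcript. In Igfals a motif TTCTCAGAA lies 236 bases before the first start (chr17:24877594-24877873, plus strand). A motif TTCCTAGAA lies 58 bases before the next start (chr17:24877981-24878260, plus strand), whose window also holds the FOXO motif GTAAACA on the other strand, a motif present in 3.49% of all windows. In Igfbp1 (chr11:7197537-7197816, plus strand) the insulin response motif CAAAACAA, present in 2.4% of all windows on either strand, begins 108 bases before the start.
Cish: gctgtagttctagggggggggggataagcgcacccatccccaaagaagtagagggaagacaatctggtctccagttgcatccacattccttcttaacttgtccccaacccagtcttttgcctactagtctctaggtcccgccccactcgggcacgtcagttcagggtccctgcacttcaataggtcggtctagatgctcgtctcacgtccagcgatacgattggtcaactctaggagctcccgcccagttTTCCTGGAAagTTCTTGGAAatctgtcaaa
Igfals, first start: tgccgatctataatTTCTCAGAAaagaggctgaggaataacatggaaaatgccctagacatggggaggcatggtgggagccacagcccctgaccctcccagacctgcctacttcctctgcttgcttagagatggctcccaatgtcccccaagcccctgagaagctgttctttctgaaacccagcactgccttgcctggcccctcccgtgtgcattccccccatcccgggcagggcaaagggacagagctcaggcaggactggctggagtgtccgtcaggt
Igfals, next start: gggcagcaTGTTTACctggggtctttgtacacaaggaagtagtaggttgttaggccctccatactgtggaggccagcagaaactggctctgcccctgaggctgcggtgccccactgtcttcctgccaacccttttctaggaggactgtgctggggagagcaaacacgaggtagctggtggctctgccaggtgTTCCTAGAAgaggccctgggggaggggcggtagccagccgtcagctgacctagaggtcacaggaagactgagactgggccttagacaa
Igfbp1: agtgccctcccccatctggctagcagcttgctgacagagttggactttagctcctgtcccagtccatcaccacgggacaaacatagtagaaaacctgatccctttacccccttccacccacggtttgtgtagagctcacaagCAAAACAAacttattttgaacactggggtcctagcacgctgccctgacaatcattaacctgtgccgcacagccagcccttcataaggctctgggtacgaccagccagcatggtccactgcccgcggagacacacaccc
No match to the STAT5 motif was found in these windows of Ghr, Igf1, Igfbp1, Igfbp2, Igfbp3 or Igfbp4, or in the last Igfals window.

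Off NTBC the livers had less Ghr, Igf1, Igfals and Igfbp4 RNA and more Igfbp1 RNA than normal livers, whether or not p21 was present. Igfals was 7.72-fold lower in Fah p21 off livers and 8.29-fold lower in Fah off livers, and Igfbp1 was 5.22-fold and 7.59-fold higher. Of the 19 probe sets on the 430A arrays, 15 were lower in both Fah p21 off livers than in every normal liver, as were 19% of all 15307 probe sets tested, and 1 was higher without overlap, as were 28.4% of all. In Fah off livers 13 were lower without overlap (19% of all) and 1 was higher (23.1% of all). By limma's test at an adjusted p of 0.05 the counts were 16 of 19 in Fah p21 off livers (28.4% of all probe sets called) and 14 of 19 in Fah off livers (35.5% of all called). Several genes have more than 1 probe set, and the called probe sets stood for 7 genes in Fah p21 off livers and 5 in Fah off livers. Nothing is read from these counts, or from the medians that follow, since the genes were chosen by this comparison. The median log2 fold change of the 19 was -1.25 in Fah p21 off livers and -0.96 in Fah off livers, against 0.11 and 0.02 over all probe sets tested. In whole liver, fewer cells of a type and less RNA per cell cannot be told apart.

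**Figure D1:**
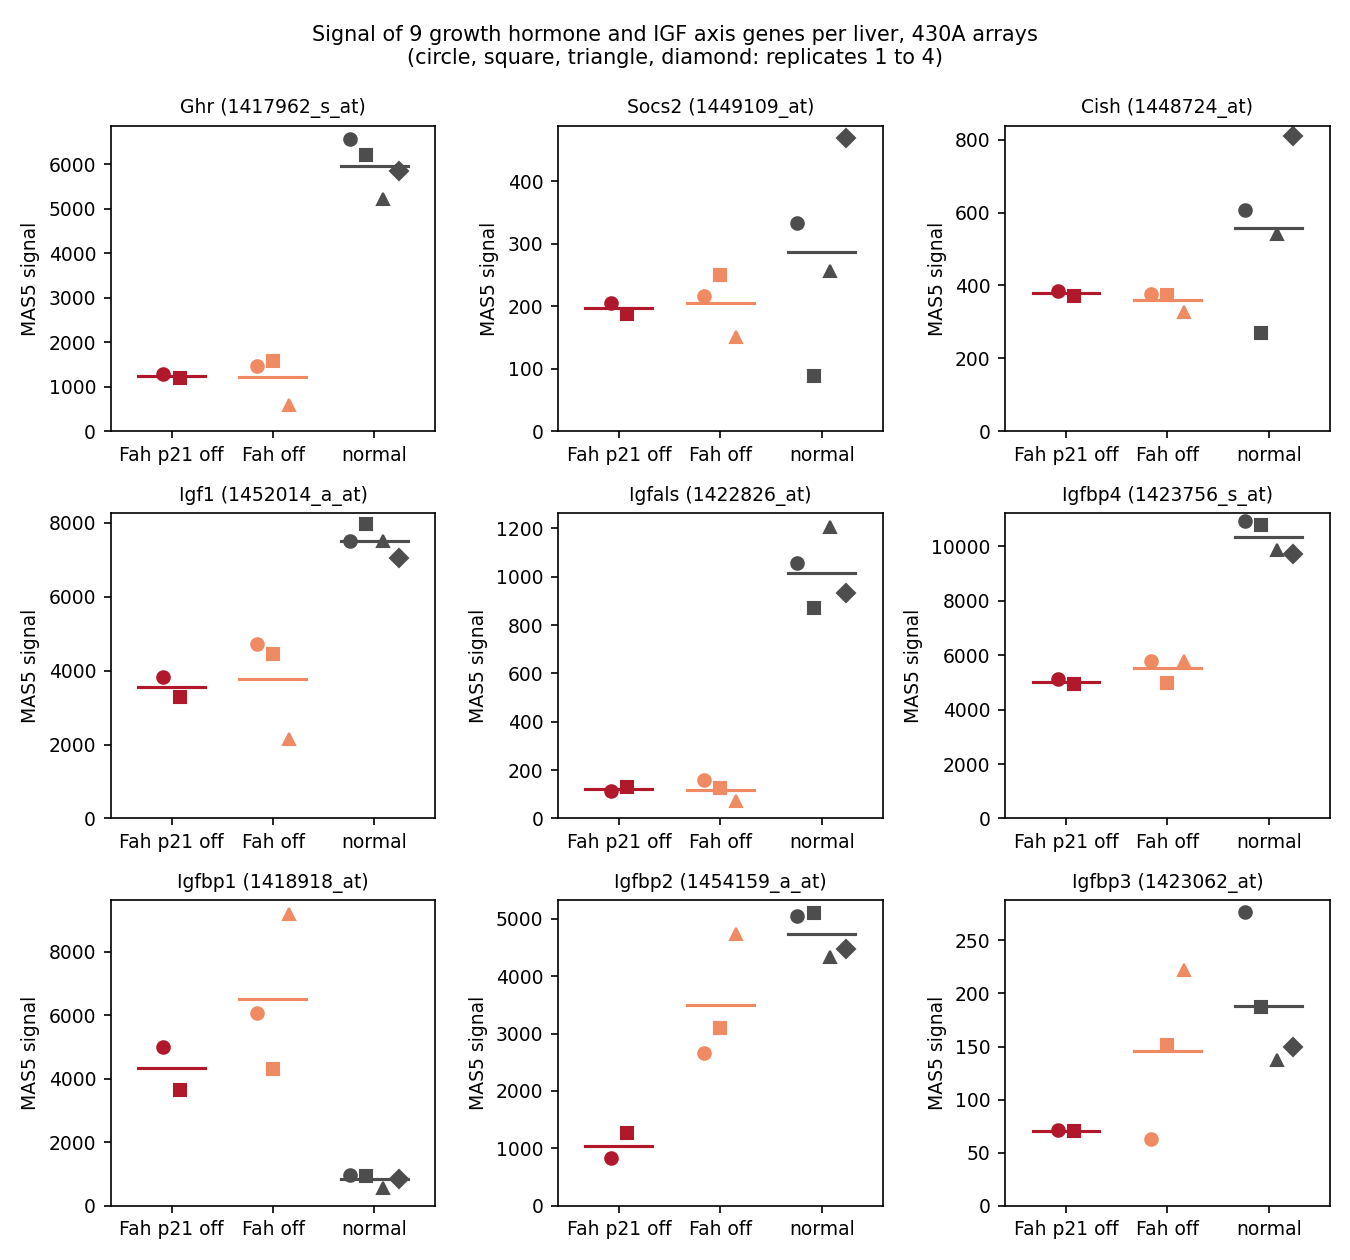
MAS5 signal (linear scale, vertical axis) of the brightest probe set of each of the 9 genes in every liver on the 430A arrays, with Fah p21 off, Fah off and normal livers from left to right and a bar at each group mean. Ghr, Igf1, Igfals and Igfbp4 lie lower in every liver off NTBC than in every normal liver, Igfbp1 lies higher, and the 4 normal livers differ most, as highest over lowest, for Socs2, 5.34-fold between 88 and 469.6.

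The receptor Ghr was measured by 3 probe sets. Signals of the brightest (1417962_s_at) were 1280.4 and 1201.1 in Fah p21 off livers and 1473.8, 1589 and 596.3 in Fah off livers, against 6561.8, 6202.6, 5221.5 and 5857.1 in normal livers. Every liver off NTBC lay below every normal liver, and Fah off 3 had the lowest signal of all. The log2 fold change against normal was -2.25 ± 0.31 (SE) in Fah p21 off livers and -2.40 ± 0.28 in Fah off livers, or -1.95 without Fah off 3. The other 2 probe sets gave -2.59 ± 0.26 and -1.76 ± 0.33 in Fah p21 off livers, and -2.51 ± 0.23 and -1.87 ± 0.29 in Fah off livers. The call on 1451871_a_at was lost in both comparisons with the genotype-matched liver on NTBC as the control.

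Socs2 and Cish, the feedback inhibitors that growth hormone induces, did not separate the groups on the 430A arrays. Cish (1448724_at) had signals of 385.3 and 370.9 in Fah p21 off livers and 375.3, 375 and 326.3 in Fah off livers, against 606, 270.1, 542 and 810.5 in normal livers. The 5 livers off NTBC lay close together, and the normal livers ran on both sides of them, with normal 2, the wildtype on NTBC, lowest. The log2 fold change was -0.45 ± 0.33 in Fah p21 off livers and -0.52 ± 0.29 in Fah off livers.

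Socs2 (1449109_at) had signals of 205 and 188.2 in Fah p21 off livers and 216.7, 250.4 and 150.3 in Fah off livers, against 332.8, 88, 256.1 and 469.6 in normal livers. The same liver, normal 2, was again lowest and normal 4 highest, and the second Socs2 probe set (1418507_s_at) placed normal 2 and normal 4 in the same way, at 30.8 and 222.3. The highest normal signal was 3.00-fold above the lowest for Cish, 5.34-fold for Socs2 on the first probe set and 7.22-fold on the second. For Socs2 the log2 fold change was -0.31 ± 0.49 in Fah p21 off livers and -0.27 ± 0.43 in Fah off livers, with 95% intervals from -1.38 to 0.76 and from -1.22 to 0.67. Without normal 2 the Cish value was -0.75 in Fah p21 off livers and -0.83 in Fah off livers. Without normal 2 the Socs2 value was -0.77 in Fah p21 off livers and -0.74 in Fah off livers. Against the 2 wildtype livers alone, Socs2 stood at 0.17 in Fah p21 off and 0.21 in Fah off livers and Cish at -0.10 and -0.17.

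**Figure D2:**
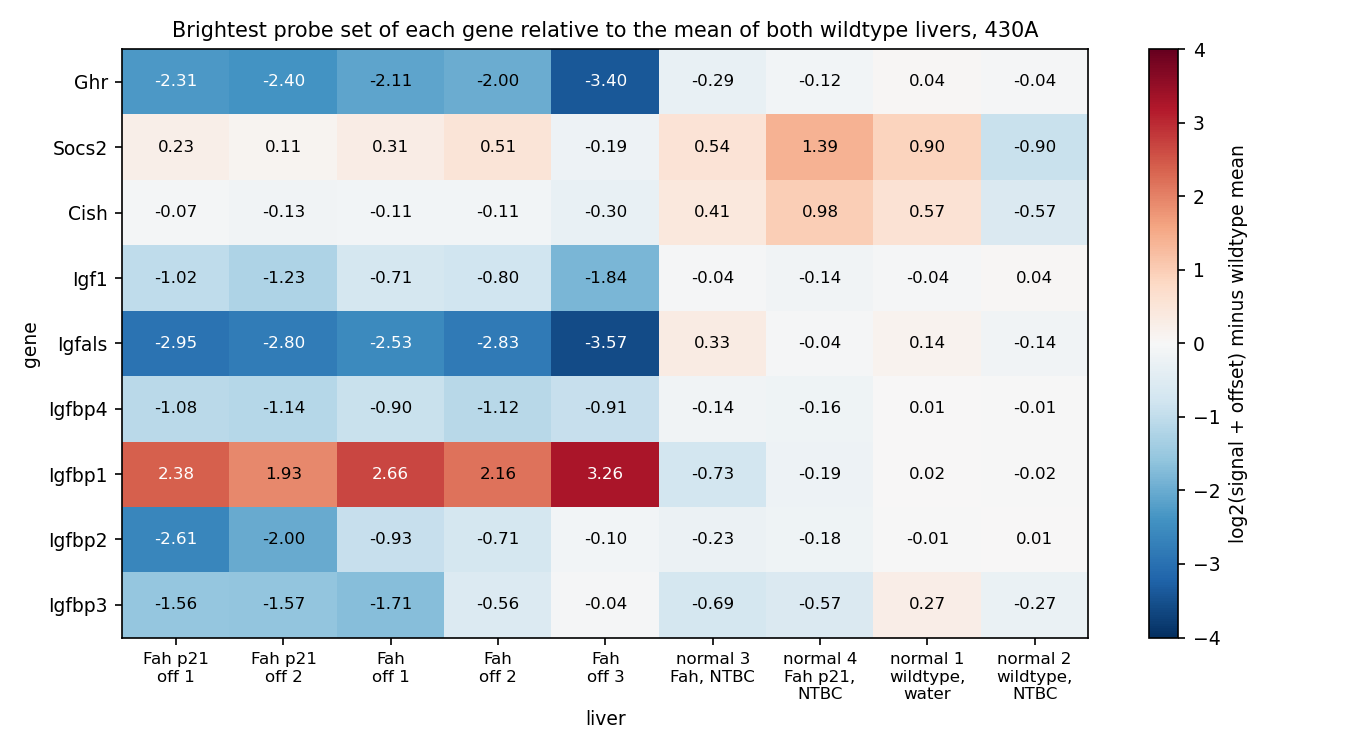
Brightest probe set of each gene (rows) in every liver on the 430A arrays (columns), as the difference of log2(signal + 9.9) from the mean of the 2 wildtype livers; blue is lower and red higher. Normal 3 and normal 4, the knockouts on NTBC, lie within 0.73 of the wildtype mean for the 7 genes other than Socs2 and Cish, where normal 4 reaches 1.39 and 0.98.

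Among the normal livers, the Fah knockout on NTBC and the Fah p21 knockout on NTBC stayed close to wildtype for the genes that differed most off NTBC. Relative to the mean of both wildtype livers, Igfals was at 0.33 in normal 3 and -0.04 in normal 4 on the log2 scale, and Ghr at -0.29 and -0.12. Igfbp1 was at -0.73 and -0.19, so below wildtype in both, whereas it was above wildtype in all 5 livers off NTBC, by 1.93 to 3.26. Each condition is 1 mouse, so these differences have no replicate.

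Igf1, the hormone itself, was measured by 3 probe sets that differed in size. The brightest (1452014_a_at) had signals of 3816.4 and 3283.8 in Fah p21 off livers and 4723.7, 4456.6 and 2156.9 in Fah off livers, against 7513.3, 7975.6, 7511 and 7042.5 in normal livers. Every liver off NTBC was below every normal liver, by -1.08 ± 0.26 in Fah p21 off livers and -1.07 ± 0.23 in Fah off livers on the log2 scale. Without Fah off 3, the lowest liver, the Fah off value was -0.71. Probe set 1437401_at had signals of 811.5 and 949.6 in Fah p21 off livers and 1067.8, 867.6 and 737.6 in Fah off livers, against 4293.9, 3803.6, 4188.5 and 3403.1 in normal livers. There the difference was -2.14 ± 0.17 in Fah p21 off livers and -2.14 ± 0.15 in Fah off livers, a larger difference than on the brightest probe set. The third probe set (1419519_at) lay between, at -1.88 ± 0.22 and -1.74 ± 0.19.

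Igfals, the acid-labile subunit that hepatocytes add to the circulating IGF complex, differed most among the 9 genes by log2 fold change. Its signals were 115.4 and 128.9 in Fah p21 off livers and 157.5, 126.3 and 71.5 in Fah off livers, against 1055.7, 870.9, 1206.7 and 932.1 in normal livers. Even the lowest normal liver had 5.53-fold the signal of the highest liver off NTBC. On the log2 scale the difference was -2.95 ± 0.26 in Fah p21 off livers and -3.05 ± 0.23 in Fah off livers.

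**Figure D3:**
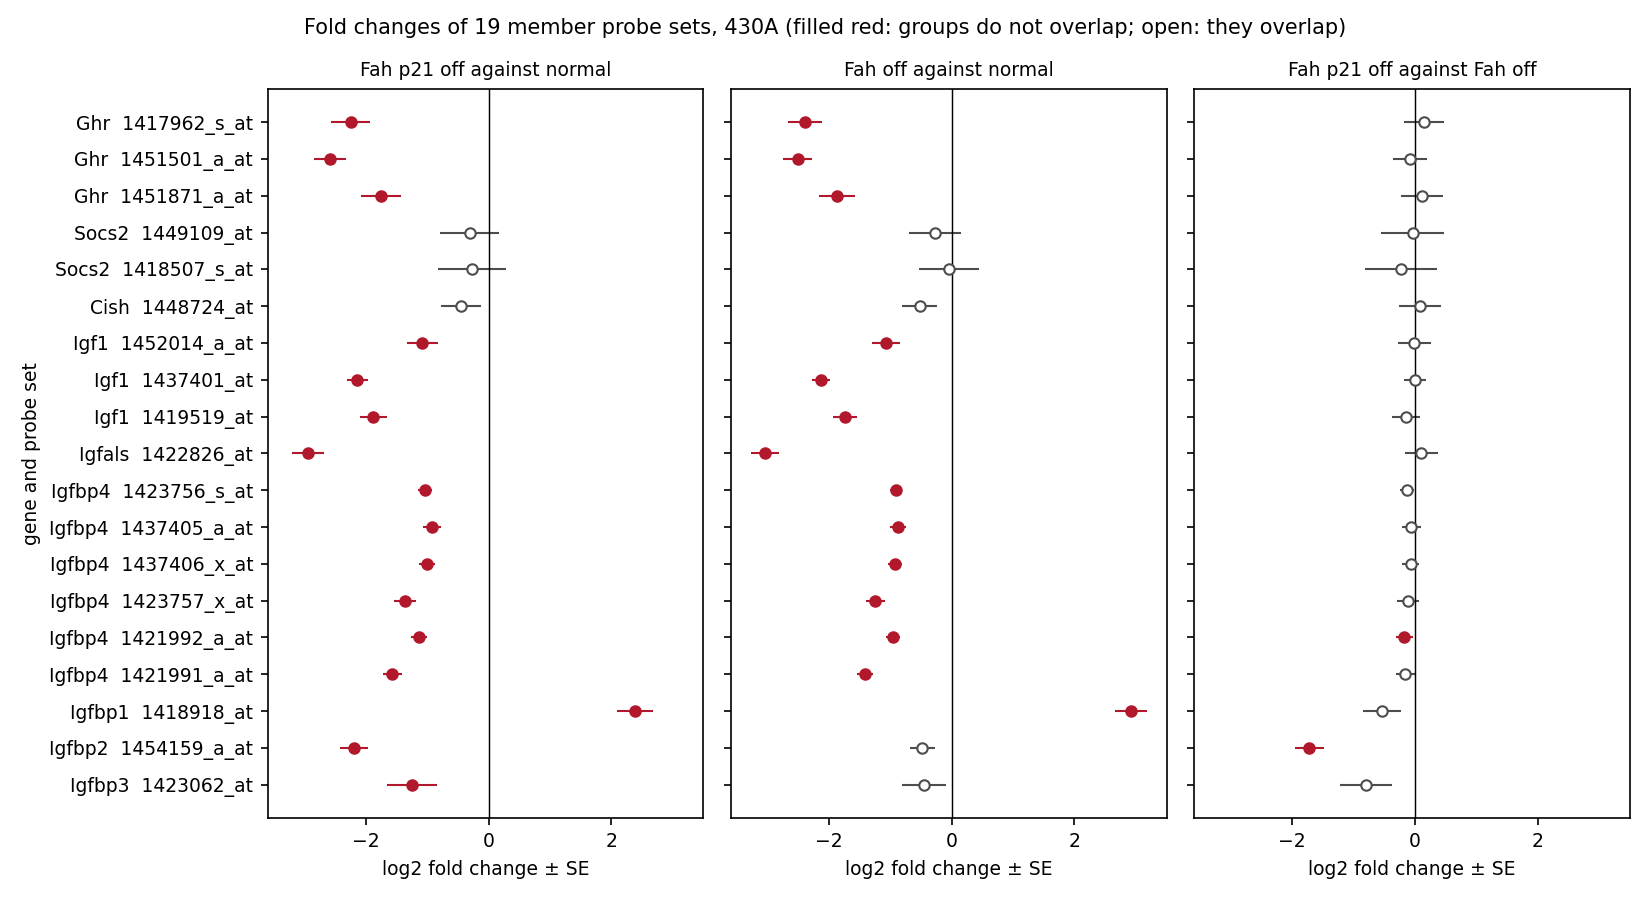
Log2 fold change ± SE (horizontal axis) of the 19 probe sets (rows) from limma, for Fah p21 off against normal (left), Fah off against normal (middle) and Fah p21 off against Fah off (right); filled points mark groups that do not overlap. The first 2 panels look alike except for Igfbp2 and Igfbp3, and in the right panel Igfbp2 stands out at -1.72.

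Igfbp4, a binding protein that mostly restrains IGF action, was lower in all livers off NTBC on each of its 6 probe sets. These log2 fold changes ran from -1.57 to -0.93 in Fah p21 off livers and from -1.41 to -0.87 in Fah off livers. The brightest probe set (1423756_s_at) had signals of 5130.4 and 4931.5 in Fah p21 off livers and 5800.8, 4973.9 and 5784 in Fah off livers, against 10920.6, 10791.4, 9878.8 and 9714.8 in normal livers. Both groups off NTBC were narrow and stood apart from normal, by -1.03 ± 0.11 in Fah p21 off livers and -0.90 ± 0.10 in Fah off livers. Quantile normalization brought these values to -0.55 and -0.56.

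Igfbp1 was the 1 gene of the 9 that lay higher in every liver off NTBC than in every normal liver. Its signals were 5005.6 and 3655.4 in Fah p21 off livers and 6088.1, 4296.7 and 9194 in Fah off livers, against 966.6, 940.4, 571.2 and 833 in normal livers. Fah off 3, which had the least Ghr and Igfals RNA, had the most Igfbp1 RNA. Against normal it stood at 2.38 ± 0.29 on the log2 scale in Fah p21 off livers and 2.92 ± 0.26 in Fah off livers, or 2.64 without Fah off 3.

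Igfbp2, a binding protein of IGF-I and IGF-II secreted by liver, lay below every normal liver in both Fah p21 off livers but not in all Fah off livers. Its signals (1454159_a_at) were 825.2 and 1261.6 in Fah p21 off livers and 2664, 3090.8 and 4732.7 in Fah off livers, against 5051.8, 5107.7, 4326.6 and 4479.8 in normal livers. Both Fah p21 off livers lay below all others, and Fah off 3 lay within the normal range while Fah off 1 and 2 lay below it. The log2 fold change was -2.20 ± 0.23 (4.60-fold lower) in Fah p21 off livers and -0.48 ± 0.20 in Fah off livers, or -0.72 without Fah off 3.

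The genotypes off NTBC were also compared directly. Signals of these same livers had entered the choice of the 9 genes, so the test is not independent of that choice. Igfbp2 was lower in Fah p21 off than in Fah off livers by -1.72 ± 0.24 on the log2 scale (3.30-fold, 95% interval -2.25 to -1.20, limma adjusted p = 0.0472 over 15307 probe sets). It was the 1 of the 19 that passed and was lower (0.0131% of all tested passed and were lower), among 6 probe sets (0.0392%) that passed in all. Without overlap 2 of the 19 were lower, Igfbp2 and Igfbp4 on 1421992_a_at, as were 10.9% of all. The Igfbp2 call is fragile: it passed under 2 of 19 alternative settings, with adjusted p from 0.0336 to 0.326, while the log2 fold change stayed between -2.03 and -1.42. Leaving out any 1 of the 9 livers ended the call. For Igfals the difference was 0.10 with an interval from -0.49 to 0.70, and for the brightest Ghr probe set 0.15 with an interval from -0.58 to 0.87, so a difference in either direction remains possible. Igfbp1 differed by -0.54 (interval -1.21 to 0.13).

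Igfbp3, which carries most IGF-I in blood and which in rat liver is made mainly outside the hepatocytes, varied 3.53-fold between the lowest and the highest Fah off liver. Its signals (1423062_at) were 71.1 and 70.1 in Fah p21 off livers and 62.9, 151.8 and 221.8 in Fah off livers, against 277.1, 187.6, 137.6 and 150 in normal livers. The Fah p21 off livers lay below all normal livers, whereas the Fah off livers ran from below to inside the normal range. The log2 fold change was -1.25 ± 0.40 in Fah p21 off livers and -0.45 ± 0.36 in Fah off livers. Both Fah p21 off signals lay below their arrays' 40th percentile, and against that percentile Igfbp3 was at least 1.78-fold lower. Igfbp3 differed between Fah p21 off and Fah off livers by -0.80 with an interval from -1.73 to 0.14.

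The 430 2.0 arrays, scaled separately, allowed the same 9 genes to be read in 2 further Fah p21 off livers against normal 4, and here Socs2 and Cish joined the lower genes. Cish had signals of 277.3 and 343.4 in Fah p21 off 3 and 4, against 1136.4 in normal 4, which is -2.02 and -1.72 on the log2 scale. Socs2 (1449109_at) had 356.4 and 290.4, against 1313.6 in normal 4, which is -1.87 and -2.16. Socs2 probe set 1418507_s_at stood at -1.74 and -1.63. Smaller differences were found on the dim Socs2 probe sets 1442586_at (-0.39 and -0.67) and 1438470_at (-0.30 and -0.11), with signals of 48.5 to 79.4. The labels do not say whether normal 4 is the same mouse or RNA on both designs; if it is, the controls of the 2 designs are not independent. The liver so numbered on the 430A arrays was the highest of the 4 normal livers for both genes, and against it alone Fah p21 off 1 and 2 stood at -1.05 and -1.11 for Cish and -1.16 and -1.28 for Socs2. On the 430A arrays the values of both genes thus changed with the normal liver taken as control. Against normal 4 the 430 2.0 livers still stood lower than the 430A livers. The livers and the array design both differ there, and the part of each was not tested.

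Igfbp1 had signals of 12487.9 and 13058.6 in Fah p21 off 3 and 4, against 3392.7 in normal 4. Igfals had 79.1 and 167.7, against 1227.1, and Igfbp2 had 1409.4 and 1218.7, against 4724.6. Igf1 on a probe set present only on this design (1434413_at) had 2369.9 and 1687.5, against 8385.3. The other Igf1 probe sets lay -2.42 to -0.64 from normal 4 on the log2 scale. Ghr (1417962_s_at) had 4107.3 and 4242.3, against 14906.9, and the other Ghr probe sets lay -2.84 to -2.27 from normal 4. All these differences ran as on the 430A arrays. The 6 Igfbp4 probe sets lay -1.71 to -0.54 from normal 4 on the log2 scale, and both Igfbp3 probe sets lay -0.87 to -0.46 from it. Of 23 member probe sets tested here, 12 were at least 2-fold lower in both livers (4.47% of all 26925) and 1, Igfbp1, was at least 2-fold higher in both (11.1% of all). The 2 probe sets not tested, both of Socs2, were too dim. The control is 1 liver here, so its own spread is unknown and no test is read from these arrays.

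**Figure D4:**
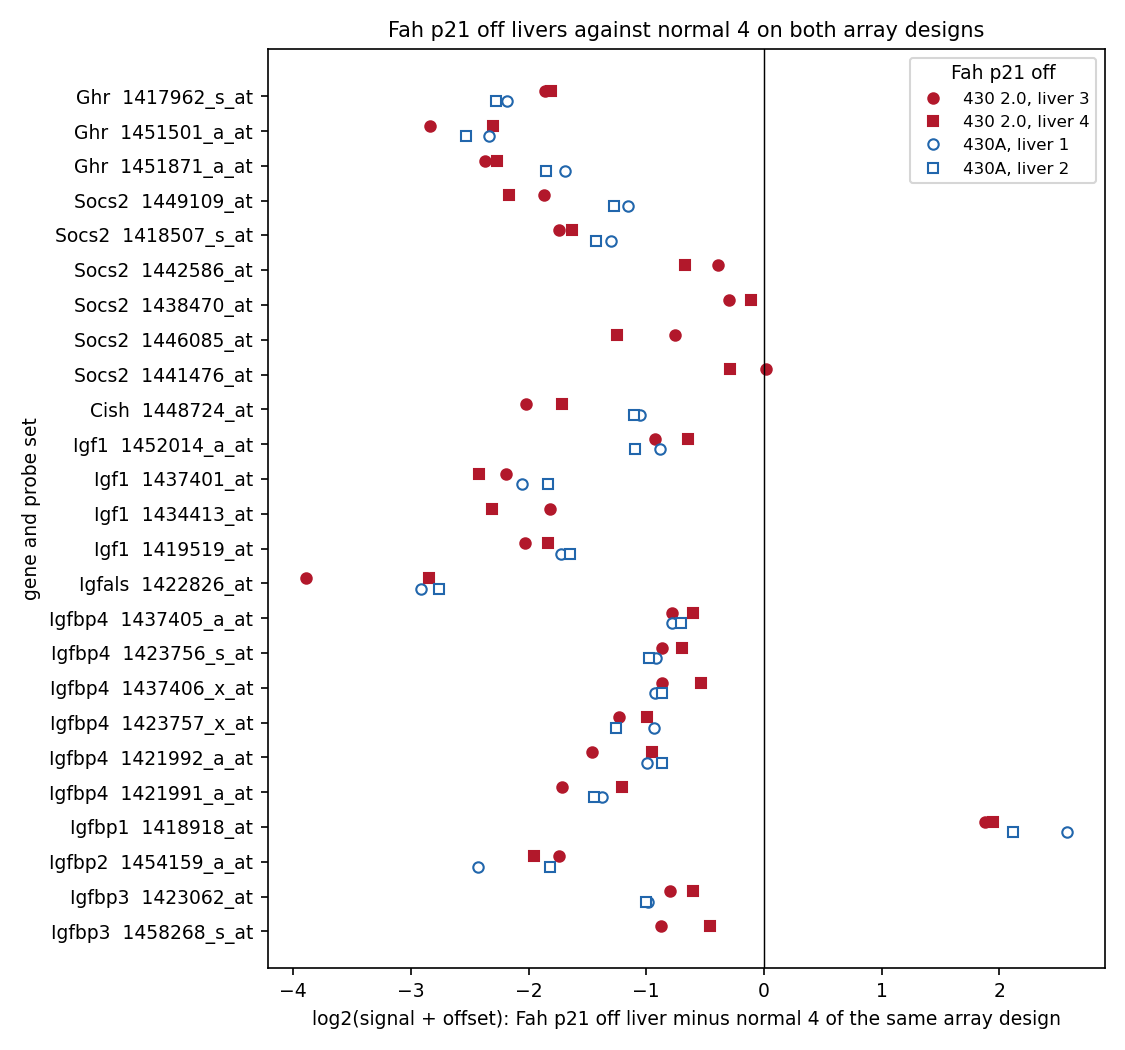
Difference of log2(signal + offset) between each Fah p21 off liver and normal 4 of the same array design (horizontal axis) for every probe set (rows); filled symbols are 430 2.0 livers 3 and 4, open symbols 430A livers 1 and 2. Igfbp1 alone lies to the right of 0 in all 4 livers, and Igfals lies farthest left, between -3.89 and -2.76.

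Counts for the other gene lists stand beside the shares of all 15307 probe sets that passed: 17.7% rose and 10.7% fell in Fah p21 off livers, and 20.1% rose and 15.4% fell in Fah off livers. Of 15 tested genes of growth hormone receptor signalling, 4 fell in Fah p21 off livers, while 2 rose and 5 fell in Fah off livers. Egfr, whose liver expression depends on growth hormone, fell by 1.80 ± 0.18 on the log2 scale in Fah p21 off livers and by 1.51 ± 0.16 in Fah off livers (limma adjusted p = 5.33e-05 and 4.08e-05). Stat5b, the transcription factor activated by the receptor, fell by 0.84 ± 0.19 in Fah off livers (adjusted p = 0.00493) and stood at -0.55 ± 0.21 in Fah p21 off livers (adjusted p = 0.0753). The liver factor Onecut1 fell by 1.28 ± 0.41 in Fah p21 off livers and by 1.62 ± 0.36 in Fah off livers. The adaptor Grb10 rose by 1.56 ± 0.32 in Fah off livers and stood at 0.91 ± 0.36 in Fah p21 off livers. Jak2 and Stat5a, named for their role after their values had been seen, stood at 0.40 ± 0.17 and 0.34 ± 0.33 in Fah p21 off livers and did not pass.

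Among 11 genes of IGF and insulin ligands, receptors and substrates, 2 rose and 2 fell in Fah p21 off livers, and 3 rose and 3 fell in Fah off livers, where 17.7% and 10.7%, and 20.1% and 15.4%, of all probe sets did. Igf2, the fetal growth factor that adult mouse liver normally hardly makes, rose by 2.58 ± 0.41 in Fah p21 off livers and 2.37 ± 0.36 in Fah off livers (adjusted p = 0.000857 and 0.000447). Its signals were 442 to 1124.7 in Fah p21 off livers and 377.6 to 1040.7 in Fah off livers, against 90.7 to 144.1 in normal livers. The adaptor Grb2 rose by 0.82 ± 0.18 and 0.86 ± 0.16, and Grb14, which inhibits the insulin receptor, fell by 0.84 ± 0.23 and 0.78 ± 0.20. Of 7 other IGF binding proteins and their proteases, 2 rose in each comparison (17.7% and 20.1% of all probe sets rose). Igfbp6, which prefers IGF-II, rose by 2.41 ± 0.25 in Fah p21 off livers and 2.84 ± 0.22 in Fah off livers, with signals of 474.3 to 816.2 and 658.9 to 1175.9, against 104.3 to 119.2 in normal livers. The protease Adamts1 rose by 0.85 ± 0.20 and 0.96 ± 0.18.

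**Figure D5:**
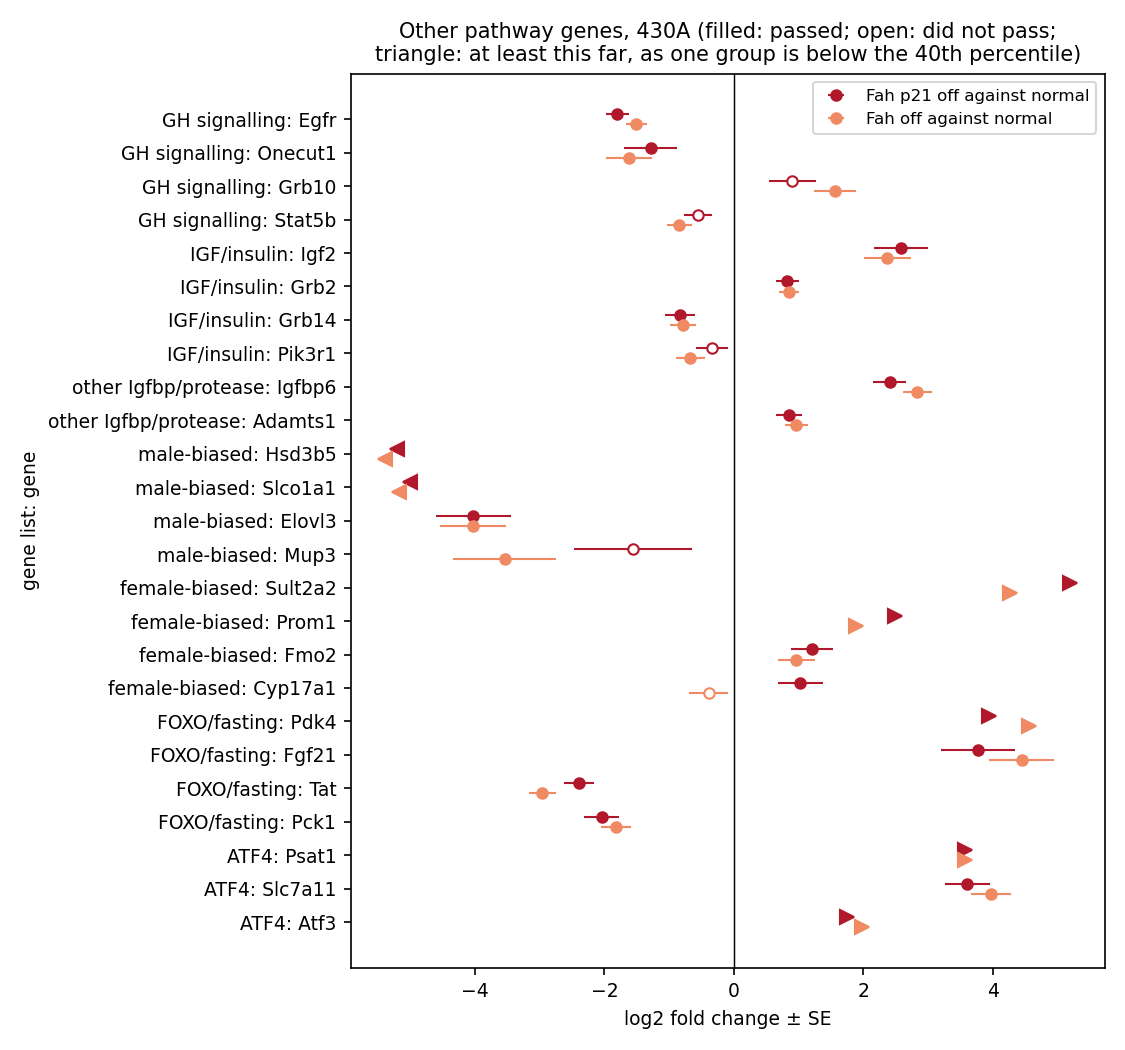
Log2 fold change ± SE (horizontal axis) against normal livers for genes of the pathway lists (rows), Fah p21 off in dark red and Fah off in orange; filled symbols passed limma's test and open ones did not, and triangles mark lower bounds where 1 group lies below the 40th percentile of its arrays. The bounds of Hsd3b5 and Slco1a1 lie on the left, between -5.39 and -5.00, and those of Sult2a2 on the right, at 5.20 and 4.26.

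The pattern of growth hormone release also sets the sex-biased genes of rodent liver. The labels used here do not name the sex of the mice. The part of sex or of growth hormone in the values below was not tested. Of 10 male-biased genes tested, 9 fell in Fah p21 off livers (10.7% of all probe sets fell) and 10 fell in Fah off livers (15.4% of all). Where every signal of a group lay below its array's 40th percentile, which was 73.8 to 100.1, the fold is given as a lower bound against that percentile. Hsd3b5, a male-specific steroid dehydrogenase, had signals of 2.4 and 2.4 in Fah p21 off livers and 1.7 to 2.7 in Fah off livers, against 2948.9 to 5038.6 in normal livers, at least 36.9-fold lower and at least 41.8-fold lower. The bile acid and organic anion carrier Slco1a1 had 9.6 to 23.3 in Fah p21 off livers and 9.3 to 10.6 in Fah off livers, against 2831.2 to 4204.4 in normal livers, at least 31.9-fold lower and at least 36.2-fold lower, and the fatty acid elongase Elovl3 fell by 4.03 ± 0.58 and fell by 4.03 ± 0.51. The gene that did not pass in Fah p21 off livers was Mup3, a major urinary protein, at -1.55 ± 0.91. Mup3 fell by 3.54 ± 0.80 in Fah off livers. Hsd3b5 and Slco1a1 lay below the 40th percentile in every liver off NTBC and could be tested only through the normal livers. For that reason nothing is read from the male-biased count. Of 5 female-biased genes tested, 4 rose in Fah p21 off livers (17.7% of all probe sets rose) and 3 in Fah off livers (20.1% of all). Sult2a2 and Prom1 lay below the 40th percentile in every normal liver and could be tested only through the livers off NTBC. Nothing is read from this count. The sulfotransferase Sult2a2 had signals of 3111.1 to 3684.6 in Fah p21 off livers and 1300.3 to 2067.9 in Fah off livers, against 11.8 to 49.3 in normal livers, at least 36.8-fold higher and at least 19.2-fold higher. Prom1, on the same list and also a marker of bile duct and progenitor cells, had 309.8 to 828 and 305.2 to 357.9, against 23.3 to 62.5 in normal livers, at least 5.60-fold higher and at least 3.69-fold higher. The monooxygenase Fmo2 rose by 1.21 ± 0.32 and 0.96 ± 0.28, while the steroid hydroxylase Cyp17a1 rose by 1.03 ± 0.34 in Fah p21 off livers and stood at -0.39 ± 0.30 in Fah off livers. Another 6 listed female-biased genes on the array were too dim to be tested.

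Genes that share regulators with Igfbp1 were read beside it. Of 12 ATF4 and amino acid response genes, 8 rose in Fah p21 off livers (17.7% of all probe sets rose) and 9 rose in Fah off livers (20.1% of all). Psat1, an enzyme of serine synthesis, had signals of 991.9 to 1182 in Fah p21 off livers and 934 to 1437.8 in Fah off livers, against 4.1 to 6.3 in normal livers, at least 11.8-fold higher and at least 11.9-fold higher. Psat1 and Atf3 lay below the 40th percentile in every normal liver and could be tested only through the livers off NTBC. Nothing is therefore read from the ATF4 count. The cystine carrier subunit Slc7a11 rose by 3.60 ± 0.35 and 3.97 ± 0.31. Of 12 FOXO and fasting-responsive genes, 2 rose and 4 fell in each comparison, where 17.7% rose and 10.7% fell of all probe sets in Fah p21 off livers and 20.1% and 15.4% in Fah off livers. Pdk4, which blocks pyruvate oxidation in fasting, had 1345.9 to 1475.2 and 1801.2 to 2577.3, against 40.5 to 73.2 in normal livers, at least 15.4-fold higher and at least 23.6-fold higher. Pdk4 too could be tested only through the livers off NTBC, so nothing is read from the count of FOXO and fasting-responsive genes. The hormone Fgf21, which is on both lists, rose by 3.77 ± 0.57 and 4.44 ± 0.50. The gluconeogenic enzyme Pck1 fell by 2.04 ± 0.27 and 1.81 ± 0.23, and the amino acid catabolic enzyme Tat fell by 2.40 ± 0.23 and fell by 2.96 ± 0.21. No gene of these 7 lists passed the test between Fah p21 off and Fah off livers, where 0.0392% of all probe sets passed.

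Markers of some of the liver's cell types also differed off NTBC, and most or all tested markers of others did not pass. Of 8 tested hepatocyte markers, 7 fell in Fah p21 off livers (10.7% of all probe sets fell) and 8 in Fah off livers (15.4% of all), with a median log2 fold change of -0.61 and -0.56. Their summed signal was 62914 to 65752 in Fah p21 off livers and 65049 to 72912 in Fah off livers, against 102795 to 107853 in normal livers. All 5 tested cholangiocyte markers rose in both comparisons (17.7% and 20.1% of all probe sets rose). Of these, Epcam, Sox9 and Prom1 lay below the 40th percentile in every normal liver. They could be tested only through the livers off NTBC, so nothing is read from this count. Another 2 on the array lay below that percentile on all arrays. The summed signal of all 7 on the array was 1240 to 1984 in Fah p21 off livers and 1309 to 1393 in Fah off livers, against 165.3 to 329.5 in normal livers. Of 10 macrophage and 10 stellate cell markers, 6 each rose in Fah p21 off livers (17.7% of all probe sets rose). In Fah off livers 3 each rose (20.1% of all). The stellate cell markers Col1a1, Lrat and Pdgfrb lay below the 40th percentile in every normal liver and could be tested only through the livers off NTBC. Nothing is read from the stellate cell count. Of 9 tested endothelial markers 1 rose in each comparison (17.7% and 20.1% of all rose) and 2 fell in Fah off livers (15.4% of all fell). None of 3 tested lymphocyte and 4 tested neutrophil markers passed limma's test. Each of these types had 7 markers on the array, and the rest were too dim to be tested. The 1 tested erythroid marker, the heme synthesis enzyme Alas2, fell by 3.58 ± 0.66 in Fah p21 off livers and fell by 4.05 ± 0.58 in Fah off livers (adjusted p = 0.00219 and 0.000302), with signals of 79.1 to 176.8 and 16.1 to 183.3, against 1150.5 to 2207.7 in normal livers. No marker was at 0 on all arrays, and their part in the values of the 9 genes was not tested.

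Fah signals were 105.3 to 114.2 in Fah p21 off livers and 100.8 to 113.5 in Fah off livers, against 181.9 to 7120.1 in normal livers, 2 of which lack Fah. A probe set of Cdkn1a, the gene of p21, had 8.2 and 9.5 in Fah p21 off livers and 989.5 to 1861.5 in Fah off livers, against 14.7 to 51.4 in normal livers. A second Cdkn1a probe set read 1827.6 to 2059.6 in Fah p21 off livers, and the labels used here do not say which part of the gene was deleted. Fah off 3 stood somewhat apart, with an SD of 0.489 in its log2 differences from the mean of the other Fah off livers, against 0.358 and 0.334 for Fah off 1 and 2, and it had the lowest of the 3 Fah off signals on 10 of the 19 probe sets.

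Genes with the most similar course over the 9 livers of the 430A design were found by Pearson's correlation of log2 signal among 9203 genes. The groups themselves set most of this likeness, so the values are descriptions. Ghr was closest to Mcm10 (r = 0.996), Igf1 to Tlcd2 (0.991) and Igfals to the uridine phosphorylase Upp2 (0.997). Igfbp4 was closest to the apolipoprotein Apoc3 (0.996) and the thyroid hormone carrier Ttr (0.995), and Igfbp1 to the proteasome factor Psmd5 (0.991) and the glutathione synthetase Gss (0.991). Igfbp2 was closest to the actin gene Actb (0.965). Socs2 had Cish among its 3 closest genes (0.930).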

How the data were processed

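The deposited values are linear signal intensities. The submitters' processing notes name MAS5 and GCOS 1.4.0.036. Their trimmed mean lay between 347.5 and 348.8 on every 430A array. Intensities were used as deposited, as log2(signal + 9.9) on the 430A arrays and log2(signal + 3.8) on the 430 2.0 arrays, the offset being the 10th percentile of each table. A probe set was tested where 2 or more arrays put it at the 40th percentile or higher (15307 and 26925 probe sets). One dim in every normal liver could be tested only through the livers off NTBC, and the reverse. Counts of the gene lists therefore stand as descriptions. limma 3.58.1 in R 4.3.3 was fitted over all 9 or 3 arrays of a table with an intensity trend, and p-values were Benjamini-Hochberg adjusted over the table (threshold 0.05). Where a 430 2.0 group holds 1 liver, it is assumed to vary like the others. Fold changes are on this log2 scale, which understates those of dim genes; lower bounds, set after the data were seen, use the 40th percentile of each array as the dim group's level. Probe sets were named from GEO's platform annotation, and 20351 of the 20380 430A probe sets with 1 symbol matched RefSeq by Entrez ID. Probe sets ending in _s_at or _x_at may also bind related transcripts. A gene with several probe sets is represented by the one of highest mean log2 signal.

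The 9 genes, the pathway and marker lists, the tests and the alternatives were chosen with earlier results of these data known. The text names every probe set or the range of the 9 genes and up to 4 genes of each pathway list, those with the largest changes among genes that passed in either comparison with normal livers. The most similar genes were the 3 with the highest Pearson correlation. The fits were also run on simulated data with independent noise and few changed probe sets. These livers differ from that setting, so nothing about the calls is read from the simulation. Numbers of arrays, 2 to 4 a group, limit the precision. At most 0.407% of signals were identical between any pair of arrays. Alternatives changed the filter, the offset, the scaling, the variance model, the normal livers used, a replicate block and each liver left out. Figures were drawn with matplotlib 3.10.9.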

Additional observations from a re-analysis of the deposited data

Results flagged for a closer look

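Igfbp2 differed between the genotypes off NTBC, in livers whose signals had entered the choice of the gene. Fah p21 off minus Fah off was -1.72 on the log2 scale (limma adjusted p = 0.0472), and it passed under 2 of 19 alternatives, with adjusted p up to 0.326. No liver on NTBC of the same genotype enters this difference, so it does not compare the effects of withdrawal. Igfbp2 signal was 825.2 and 1261.6 in Fah p21 off livers, below each of 2664, 3090.8 and 4732.7 in Fah off livers. The 2 Fah p21 off livers on the 430 2.0 arrays, with 1409.4 and 1218.7, were also below normal 4 of that design, with 4724.6; no Fah off liver was measured there. No normal liver stood apart from the other 3 by Dixon's criterion in any of the 19 probe sets. With 4 values that criterion asks for a gap above 0.829 of the range, so it can miss livers that differ widely. The normal livers are different conditions, and their signals do not enter the Igfbp2 difference itself.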

How the results depend on the processing

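Fah p21 off against normal livers gave 4353 probe sets, 1862 with only the genotype-matched liver on NTBC as control, 2135 with a 2-fold minimum and 2533 to 4663 with a liver left out (2533 without Fah p21 off 1 and 2595 without Fah p21 off 2). The count among the 19 probe sets was 16, 7 of the 9 brightest probe sets, and 14 to 16 with a liver left out. Fah off against normal livers gave 5437, then 2596, 2265 and 4315 to 5246 in the same order; the count among the 19 was 14, 5 of the 9 brightest, and 14 to 16 with a liver left out.

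Fah p21 off against Fah off livers gave 6 probe sets, Igfbp2 among them. It gave 1 with the filter at the 60th percentile, without the offset, with wildtype livers as the only normals or with the replicate block, 2 with robust limma, 3 after median scaling, 13 without the trend and 14 with the offset at the 25th percentile. With a liver left out it gave 1 to 80 (80 without Fah p21 off 1). Under each of these settings other than the 25th percentile offset, Igfbp2 was lost and 0 of the 19 remained called (0 to 0 with a liver left out), as also without a filter on low signals.

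Higher calls made up 62.4% in Fah p21 off livers, 51.7% after quantile normalization and 39.3% after median scaling, which moved the median log2 fold change of all probe sets to -0.13. The same-numbered livers did not deviate together (correlations -0.28 to 0.07), so the numbers were not taken as pairs; the replicate block gave 3479, 4463 and 1 probe sets. No paired analysis was possible on the 430 2.0 arrays because their groups share no more than 1 number. The call of Igfbp3 in Fah p21 off livers was lost without a filter, without the trend, with the block, with the genotype-matched control, and without any of 5 livers (Fah off 2, either Fah p21 off liver, normal 1 or normal 2). That of the brightest Igf1 probe set was lost after quantile normalization, with the genotype-matched control and without Fah p21 off 2. With the genotype-matched control, which is 1 liver assumed to vary like the others and the highest normal for both genes, Cish (-1.08) and Socs2 (-1.22) passed in Fah p21 off livers. With wildtype livers only they did not (-0.10 and 0.17, adjusted p = 0.839 and 0.819). The genotype-matched control also ended the calls of Ghr 1451871_a_at and Igf1 1452014_a_at in both comparisons. With it 15 of the 19 were called in Fah p21 off livers, 13 of them among the 16 above, and 12 in Fah off livers.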
